A study of Mus musculus with 2 samples.

Results

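The neighbourhood of Id1, Cox4i2 and Bcl2l1 is a 160-kb window of mouse chromosome 2 selected on the number and the signal of the EP300 peaks in it. Its members were the peaks whose summit, the point of highest signal in a peak, lay in the window. They numbered 37 of the 43988 peaks in the optimal list of reproducible peaks, 34 of the 42473 in the conservative list and 96 of the 300000 called on the pooled libraries. The list of replicate 1 gave 100 of its 300000 peaks and the list of replicate 2 gave 82 of 300000.

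Newborn lungs (whole tissue, B6NCrl mice, postnatal day 0) were assayed for EP300 by ChIP-seq, which sequences the DNA that an antibody pulls down with the protein. The series holds 1 group of 2 libraries, with no treatment, mutation or second condition, so no conditions were compared. The libraries are numbered as biological replicates 1 and 2 in the labels, which also give them a common donor and biosample record, so their spread may be technical, and the sex was not collected. Whole lung mixes many cell types, and strong occupancy in few cells cannot be told apart from weak occupancy in many. Peaks carry a signal value that the authors deposited with no scaling stated, and it served here only to describe and rank peaks within a list. Since the count and the signal of the peaks selected the window, its values are a description, and no test was made of them.

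EP300 is a histone acetyltransferase and coactivator that DNA-bound transcription factors bring to active enhancers and promoters. Id1 encodes an inhibitor of basic helix-loop-helix transcription factors and is a classic target of bone morphogenetic protein (BMP) signalling, in which receptors activate SMAD proteins that bind DNA. In blood vessels of the lung, BMP signalling in endothelial cells is known to turn on Id genes. Cox4i2 encodes an isoform of a cytochrome c oxidase subunit, the last complex of the respiratory chain. It is known for its expression in lung and in pericytes, and for a part in oxygen sensing by pulmonary vessels in mice. Bcl2l1 encodes BCL-XL, a protein of the outer mitochondrial membrane that blocks apoptosis.

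On the mm10 build, Id1 (chr2:152736251-152737410, plus strand) has 2 exons in 1.16 kb. Cox4i2 (chr2:152754173-152765037, plus strand) has 5 exons and starts 16.8 kb beyond the end of Id1. Bcl2l1 (chr2:152780668-152831728, minus strand) runs toward Cox4i2, and its 3′ end lies 15.6 kb past the end of Cox4i2. Its 3 exons span 51.1 kb, of which the second intron (chr2:152782283-152829426) takes 47.1 kb. The window also reaches into H13 on one side and Tpx2 on the other, and holds the pseudogene Gm14162 and the small RNA gene Gm23802. Peaks of the optimal list are numbered 1 to 37 from the H13 side to the Tpx2 side.

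The sequence at the summits is shown for the peak upstream of Id1, which holds letters known from BMP-responsive DNA, and for the 6 strongest peaks. For peak 5 the central 200 bp are given, with capitals for a GC palindrome (GGCGCC), for SMAD boxes (CAGAC, either strand) and for a CREB site (TGACGTCA). For peaks 10, 15, 16, 21 and 23 the central 100 bp are given, with capitals for TEAD (GGAATG) and GATA (GATAA after A or T and before A or G) matches. For peak 31 the capitals mark a loose glucocorticoid response element, in which ACA and TGT stand 3 bases apart between an outer G and C. Strand names the strand printed, on mm10.
Peak 5 (chr2:152735102-152735301, plus strand): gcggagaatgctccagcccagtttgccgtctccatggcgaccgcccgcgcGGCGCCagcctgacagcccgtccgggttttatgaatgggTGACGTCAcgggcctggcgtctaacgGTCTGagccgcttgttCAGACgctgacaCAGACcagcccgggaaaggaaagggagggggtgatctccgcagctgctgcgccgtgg
Peak 10 (chr2:152741681-152741780, plus strand): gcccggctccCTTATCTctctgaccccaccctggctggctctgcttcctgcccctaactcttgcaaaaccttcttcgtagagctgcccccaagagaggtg
Peak 15 (chr2:152784741-152784840, plus strand): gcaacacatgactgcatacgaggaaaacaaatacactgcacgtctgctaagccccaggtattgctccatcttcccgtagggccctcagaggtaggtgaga
Peak 16 (chr2:152785652-152785751, plus strand): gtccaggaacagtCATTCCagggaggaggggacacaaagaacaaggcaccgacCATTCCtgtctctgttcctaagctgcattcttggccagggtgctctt
Peak 21 (chr2:152792658-152792757, plus strand): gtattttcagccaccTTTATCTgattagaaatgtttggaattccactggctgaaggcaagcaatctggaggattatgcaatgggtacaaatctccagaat
Peak 23 (chr2:152806201-152806300, plus strand): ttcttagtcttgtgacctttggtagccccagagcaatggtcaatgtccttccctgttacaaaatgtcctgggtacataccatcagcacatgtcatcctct
Peak 31 (chr2:152820452-152820551, plus strand): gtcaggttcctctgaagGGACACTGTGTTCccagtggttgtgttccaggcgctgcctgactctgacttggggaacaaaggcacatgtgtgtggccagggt

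Peaks 14 and 34 are shown because each holds matches to several factors in 100 bp. Capitals mark TEAD (GGAATG), AP-1 (TGANTCA with C or G as N), FOX (TNTTTAC with A or G as N) and RUNX (TGTGGT). In peak 34 the FOX and RUNX matches overlap by 2 bases.
Peak 14 (chr2:152782790-152782889, plus strand): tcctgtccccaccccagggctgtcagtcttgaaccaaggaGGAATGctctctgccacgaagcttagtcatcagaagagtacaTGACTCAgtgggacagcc
Peak 34 (chr2:152827414-152827513, plus strand): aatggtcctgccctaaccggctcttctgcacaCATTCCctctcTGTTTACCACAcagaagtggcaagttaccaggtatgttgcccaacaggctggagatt

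The 37 peaks formed 4 blocks between H13 and Tpx2. The first block held peaks 1 to 12 around Id1 over 24.4 kb, the next only peak 13, the third peaks 14 to 21 over 9.87 kb and the last peaks 22 to 37 over 25.6 kb. Blocks were set apart by the 3 gaps over 10 kb, which measured 14.1, 17.4 and 12.4 kb. The block around Id1 carried 22.0% of the summed signal of 3854, peak 13 carried 2.06%, and the blocks of 8 and 16 peaks in Bcl2l1 carried 36.4% and 39.6%. The median gap between neighbouring summits was 1181 bp, and 15 of the 36 gaps were under 1 kb. Of the peaks, 14 overlapped another, so that merging gave 30 regions that covered 13.1 kb, or 8.20% of the window.

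**Figure D1:**
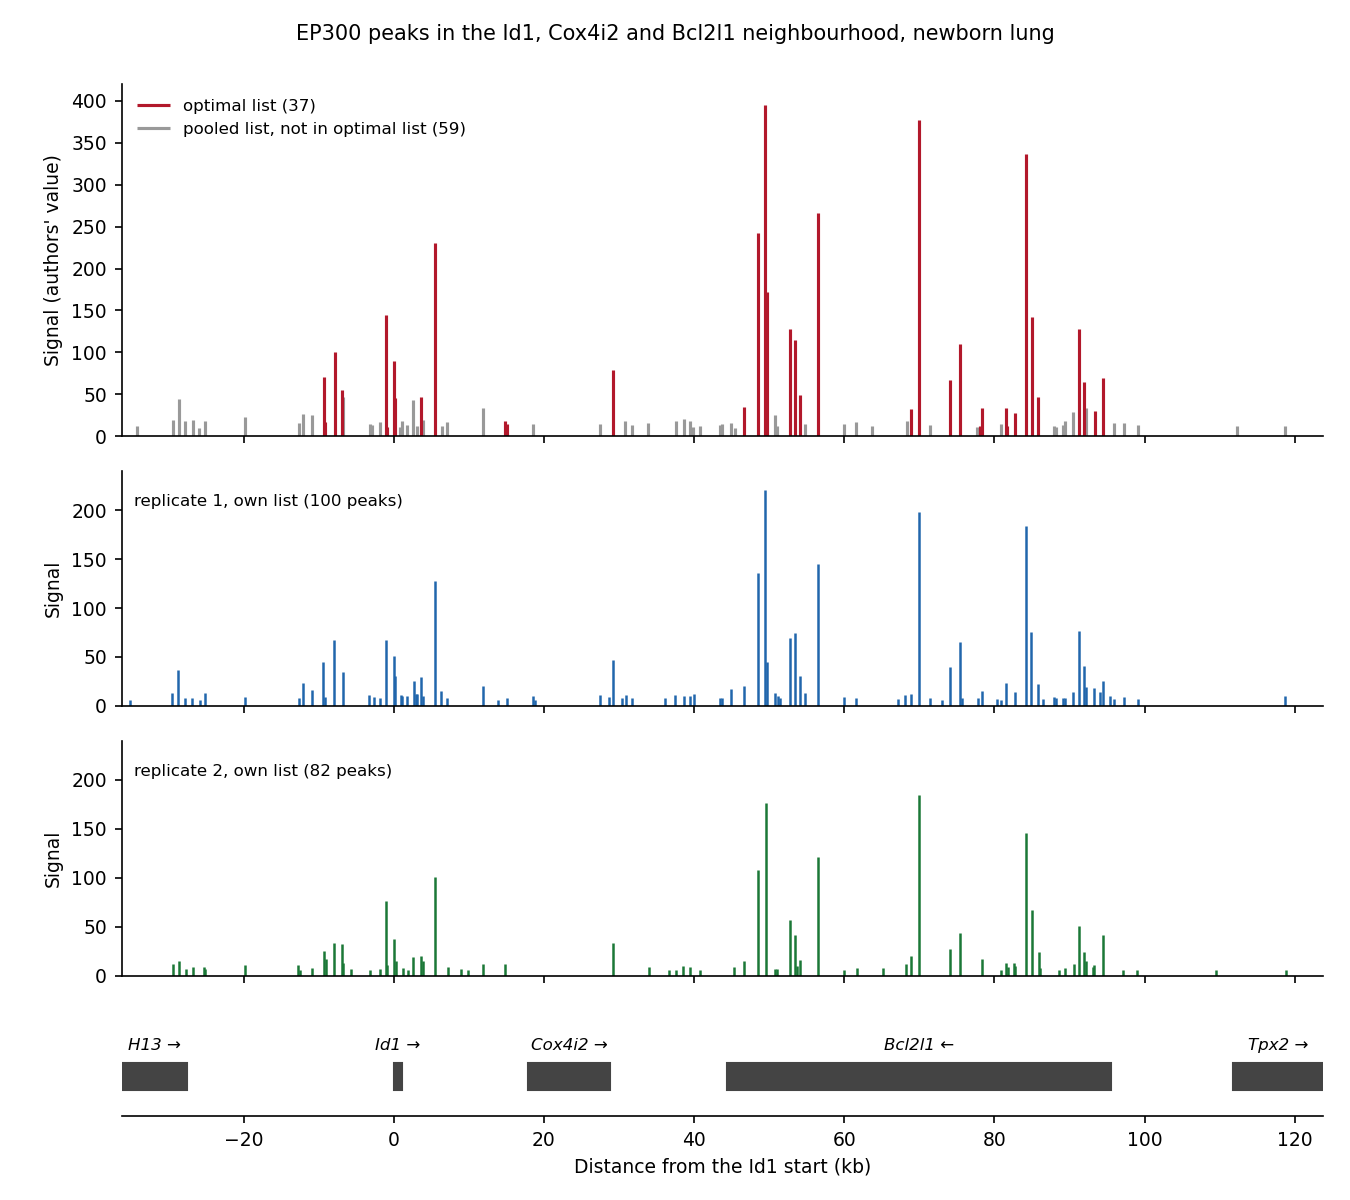
Signal of each peak (vertical lines, authors' value) against distance of its summit from the Id1 start in kb. The upper panel gives the 37 optimal peaks and the 59 pooled peaks outside the optimal list, the middle panels each library's own list, and the lowest panel the gene bodies with arrows for strand. The tallest lines of every panel lie inside Bcl2l1, and the body of Cox4i2 holds no optimal peak.

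Upstream of Id1 lay 7 peaks with 12.7% of the signal. Peaks 1 to 4 stood between 9.35 and 6.94 kb upstream of the start, with signals of 70.4, 17.3, 101 and 54.8. Peak 5 (chr2:152734990-152735413), 1.05 kb upstream, was the highest of the 7 with a signal of 145, which ranked 2739 of 43988, and it had 67.8 in replicate 1 and 76.0 in replicate 2. Peak 6, whose summit lay 202 bp from it, had the lowest signal of the window's optimal peaks at 11.3.

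The Id1 start itself was covered. The summit of peak 7 lay 2 bp before the annotated start and had a signal of 90.2. Peak 8 overlapped it from the coding part of exon 1, 198 bp into the gene, with 46.0. In its own list, replicate 1 had a signal of 51.5 at peak 7 and 30.1 at peak 8, and replicate 2 had 37.4 and 14.5. Both libraries therefore gave the larger value at the start.

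Peak 5 holds in its central 200 bp a GGCGCC palindrome, 3 CAGAC boxes and a TGACGTCA, as printed above. GGCGCC and CAGAC are letters that SMAD proteins are known to bind in BMP-responsive DNA, and TGACGTCA is the site of CREB and ATF factors. From the Id1 start, GGCGCC lay 1099 bp upstream, TGACGTCA 1060 bp upstream and the CAGAC boxes 1034, 1018 and 1006 bp upstream. Among the 43972 optimal peaks on the chromosomes, 2.37% held GGCGCC in the central 200 bp, 39.0% CAGAC and 0.694% TGACGTCA. The spaced BMP response element, in which GGCGCC is followed after 5 bases by GTCT, was in 0 of the 37 peaks at any width searched, peak 5 included.

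Between Id1 and Cox4i2 lay 4 peaks, of which 1 held most of the signal there. Peak 10 (chr2:152741651-152741839), 5.48 kb beyond the Id1 start, had a signal of 230 and rank 682. In the libraries' own lists it had 128 (replicate 1) and 101 (replicate 2), with ranks of 706 and 735. It holds a GATA match that begins 40 bp from its summit. Peak 9, 3.66 kb past the start, had a signal of 47.3. Peaks 11 and 12, which overlapped each other 3.11 and 2.84 kb upstream of Cox4i2, had 18.6 and 14.98.

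Cox4i2 was the member without an optimal peak at its own start. No optimal or conservative peak lay in its body, and none lay within 2 kb of its start sites. The pooled list had 2 peaks in the body, the higher with a signal of 14.8, and replicate 1 had 4, the highest 10.7, against a median of 7.86 over that library's list. Replicate 2 had none. The lower pooled peak (14.2) lay 18.6 kb beyond the Id1 start, close to the Cox4i2 start at 17.9 kb. Replicate 1 had weak peaks there too, at 18.6 and 18.8 kb, with signals of 9.90 and 5.94. Peak 13 (chr2:152765248-152765671), the only optimal peak between Cox4i2 and Bcl2l1, had its summit just past the end of Cox4i2, 423 bp away. Its signal of 79.4 came with 47.3 in replicate 1 and 33.1 in replicate 2.

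Bcl2l1 held 24 of the 37 peaks (64.9%) and 76.0% of the summed signal in 31.9% of the window's length. Of these, 22 lay in the second intron, with signals between 11.96 and 394 and a median of 88.9. By density, the Bcl2l1 body had 4.70 optimal peaks per 10 kb, against 1.93 upstream of Id1, 2.39 between Id1 and Cox4i2 and 0.640 between Cox4i2 and Bcl2l1. The value upstream of Id1 depends on the window edge. That stretch is 36.25 kb long, but its 7 peaks all lay within 9.35 kb of the Id1 start, where they stood closer together. The longer lists, which add weak peaks, showed a smaller contrast: the Bcl2l1 body and the stretch between Cox4i2 and Bcl2l1 had 8.23 and 7.04 per 10 kb in the pooled list, 9.01 and 7.04 in replicate 1 and 7.44 and 4.48 in replicate 2. By summed signal the Bcl2l1 body held 65.7% in the pooled list, 64.2% in replicate 1 and 66.5% in replicate 2. The Id1 body, only 1.16 kb long, had 1 peak, which makes 8.62 per 10 kb, more than the Bcl2l1 body. In the pooled list it had 3 peaks, or 25.9 per 10 kb. Beyond the first exon of Bcl2l1 toward Tpx2 the optimal list had 0 peaks, and the highest of 5 pooled peaks there had a signal of 15.7.

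**Figure D2:**
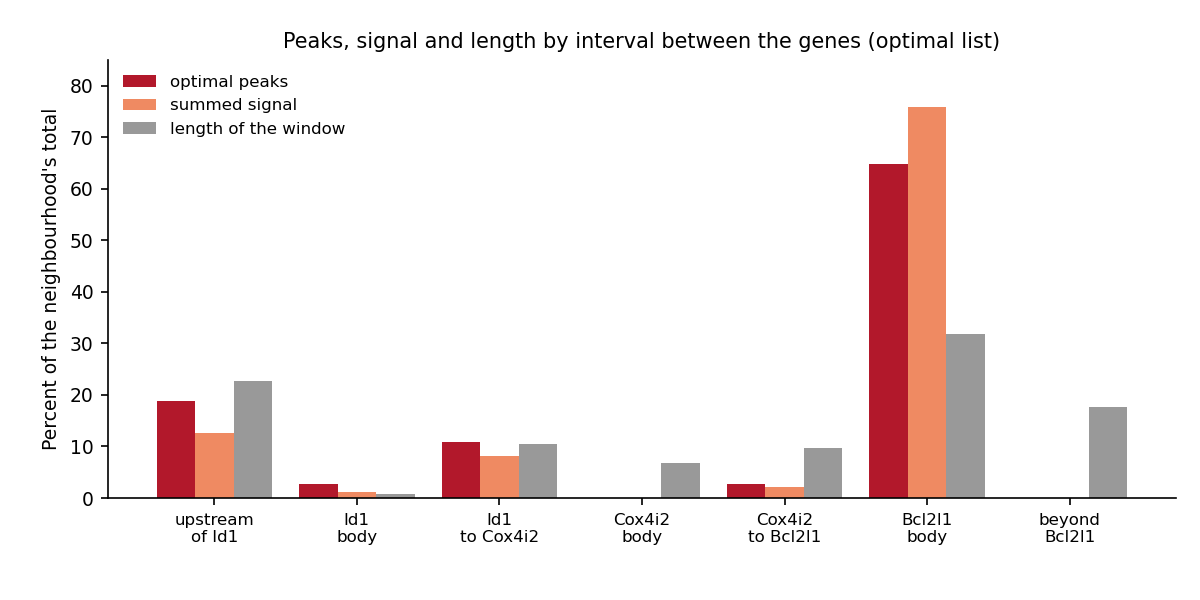
Share of the optimal peaks, of their summed signal and of the window's length (percent) in each interval cut by the 3 gene bodies. The Bcl2l1 body holds 64.9% of the peaks and 76.0% of the signal, and the bars for peaks are at 0 in the Cox4i2 body and beyond Bcl2l1.

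Of the 6 peaks with a signal over 200, 5 lay in the second intron of Bcl2l1. Peak 16 was the strongest of the window, with 394 and rank 63, and peak 23 followed with 378 and rank 90. Peak 31 had 336 (rank 151), peak 21 had 266 (rank 402) and peak 15 had 242 (rank 574). Over the whole optimal list, 2.44% of peaks had a signal over 200. The 3 strongest peaks held 28.8% of the window's summed signal and the strongest 6 held 47.9%.

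The peaks differed in width. Peaks 10, 15, 21, 23 and 31 were 189 to 347 bp wide, and peak 16 shared an interval of 513 bp with peak 17. Peak 34 was 161 bp wide. The other 29 peaks were 424 bp wide, as were 96.9% of all optimal peaks.

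Peaks 16 and 17 (chr2:152785480-152785992) are 2 summits, 199 bp apart, of 1 interval. Replicate 1 had a summit near each, with signals of 221 and 44.9. Replicate 2 had a single summit between them, with a signal of 177, which lay 104 bp from peak 16 and 95 bp from peak 17. With a matching distance of 100 bp, that summit counted for peak 17 alone. As a region, the interval was among the 2 strongest of the window in both libraries.

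Peak 16 holds 2 TEAD matches, which begin 37 and 3 bp from its summit. TEAD factors carry the transcriptional output of the Hippo pathway together with YAP and TAZ. Peak 21 holds a GATA match, peak 31 a loose glucocorticoid response element of the kind bound by the glucocorticoid receptor, and peaks 15 and 23 held neither a TEAD nor a GATA match. The loose element occurred in 2.17% of all optimal peaks and the strict palindromic form in 0.107% of them and in 0 of the 37. Peak 14 (signal 35.0) holds an AP-1 and a TEAD match.

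The starts of Bcl2l1 differed in their distance from a peak. The start of the first exon, at 152831728, had its nearest optimal summit, that of peak 37, 1004 bp away. Peak 37 (chr2:152830512-152830935) has its summit in the first intron, 7 bp from a start that RefSeq gives at 152830717 and 58 bp from the nearest GENCODE start. Its signal was 69.1, with 25.2 in replicate 1 and 41.4 in replicate 2. Peak 36, in coding exon 2, had 30.6. A further RefSeq start, at 152828489, had its nearest optimal summit, that of peak 35 (signal 64.9), 280 bp away. Peak 35 lay 2.10 kb from the nearest GENCODE start, so counts within 1 kb leave it out.

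The promoters of the first-exon start and the start in intron 1 are shown because a peak lies over the one in intron 1 only. They run from 250 bases before to 50 after the start (RefSeq, GRCm38.p6). The promoter of the further start is not shown. Capitals mark ETS (ACCGGAAGT) and HIF (CGTG after A or G) matches.
Bcl2l1 start in intron 1 (chr2:152830668-152830967, minus strand): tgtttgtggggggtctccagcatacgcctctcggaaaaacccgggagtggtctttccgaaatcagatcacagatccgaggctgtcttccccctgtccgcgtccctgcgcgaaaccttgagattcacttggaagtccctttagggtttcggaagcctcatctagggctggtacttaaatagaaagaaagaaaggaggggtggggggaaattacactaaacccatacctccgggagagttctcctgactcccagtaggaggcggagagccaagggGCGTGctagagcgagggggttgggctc
Bcl2l1 start of exon 1 (chr2:152831679-152831978, minus strand): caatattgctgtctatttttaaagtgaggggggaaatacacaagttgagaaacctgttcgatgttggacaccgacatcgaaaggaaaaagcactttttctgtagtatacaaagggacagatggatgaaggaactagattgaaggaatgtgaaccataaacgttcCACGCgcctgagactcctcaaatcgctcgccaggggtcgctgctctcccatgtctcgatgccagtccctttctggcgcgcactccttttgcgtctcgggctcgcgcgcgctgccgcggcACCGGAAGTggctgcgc
The promoter of the first exon holds the ETS letters, found in 1.10% of the 32851 promoters in the table, and both hold 1 HIF match, found in 43.8% of them. Neither holds GGGCGG, which 35.7% of promoters hold.

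Assignment by the nearest start gave to Cox4i2 a run of peaks that lie inside Bcl2l1. Id1 had the nearest coding start for 10 peaks, Cox4i2 for 10 and Bcl2l1 for 17. Of the 10 given to Cox4i2, 7 (peaks 14 to 20) lay inside Bcl2l1, 27.7 to 35.2 kb from a Cox4i2 start. They carried 91.0% of the signal so assigned to Cox4i2. Peak 21 lay about as far from either gene, with 37.602 kb to the nearest Bcl2l1 start and 37.614 kb to the Cox4i2 start. Which gene a peak acts on was not measured.

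Within 50 kb of a start, Id1 had 20 optimal peaks, Cox4i2 21 and Bcl2l1 24. These sets shared members. Id1 and Cox4i2 had 17 in common (of 20 and 21), Cox4i2 and Bcl2l1 had 8, and Id1 and Bcl2l1 had 4. A peak within 50 kb was held by 68.0% of the 21829 protein-coding genes, with a median of 2 peaks. Within 10 kb the counts differed more, with 10 for Id1, 2 for Cox4i2 and 7 for Bcl2l1. Within 1 kb of a start, Id1 had 3, Bcl2l1 2 and Cox4i2 0, and 21.5% of protein-coding genes had at least 1. H13 and Tpx2 had none within 10 kb.

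**Figure D3:**
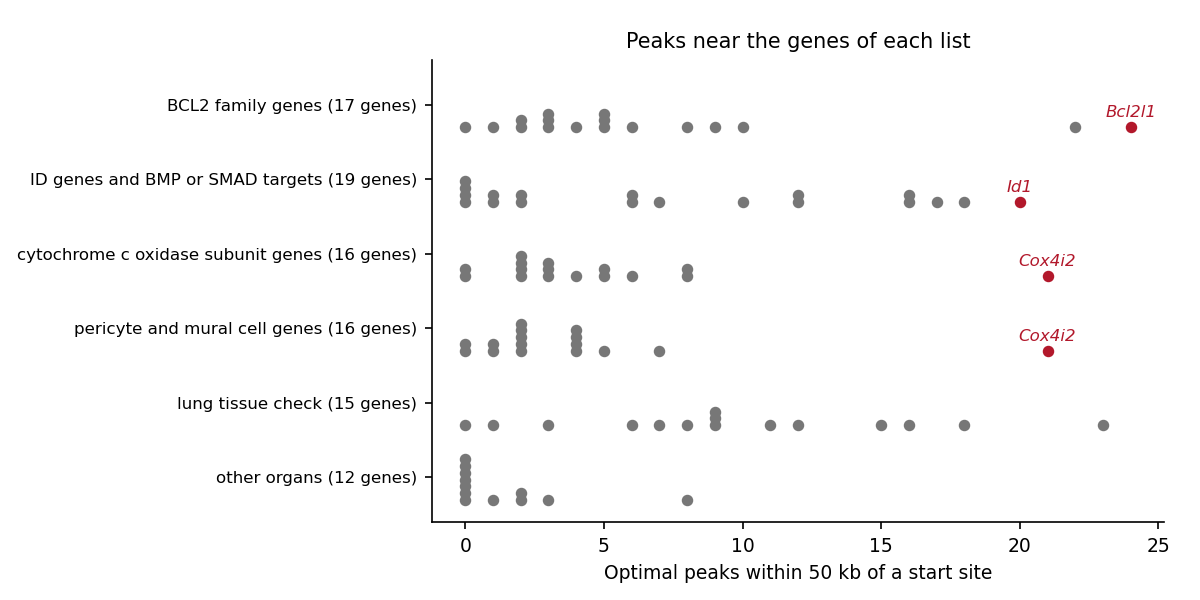
Optimal peaks within 50 kb of a start site (horizontal axis) for each gene (point) of 6 lists, with Id1, Cox4i2 and Bcl2l1 in red and points at the same count stacked. Each of the 3 genes has the highest count of its list.

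Other genes of the same families were set beside the members. Over all protein-coding genes, 68.0% had a peak within 50 kb, with a median of 2. The 3 genes were chosen for their peaks, so their place in a list is a description. In the BCL2 family, which controls apoptosis at the mitochondrion, 16 of 17 genes had a peak within 50 kb, with a median of 5. Bcl2l1 had 24 and Mcl1, a further anti-apoptotic member, had 22, while the pro-apoptotic Bad had 10. Bcl2 itself had 4. The counts did not split by function. The anti-apoptotic Bcl2l2 had 2 and Bcl2a1a had 0, while the pro-apoptotic Bmf had 9 and Bbc3 had 8.

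Among ID genes and genes of BMP or SMAD signalling, 15 of 19 had a peak within 50 kb, against 68.0% of all protein-coding genes. The median was 6, against 2. Id1 had 20, the Notch target Hes1 had 18 and Smad7, an inhibitor of SMAD signalling, had 17. The other Id genes had 16 (Id3), 6 (Id2) and 1 (Id4). Promoter peaks, within 1 kb of a start, were found at 9 of the 19, against 21.5% of all protein-coding genes.

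Cox4i2 stood in a pair of lists. Of the 16 cytochrome c oxidase subunit genes 14 had a peak within 50 kb, against 68.0% of all protein-coding genes. Their median was 3, against 2, and after Cox4i2 with 21 came Cox6b1 and Cox7a2 with 8 each. The widely expressed isoform, Cox4i1, had 3. Of 16 pericyte and mural cell genes 14 had a peak. Their median of 2 was also that of all protein-coding genes, of which 68.0% had a peak. After Cox4i2 came Gucy1a1 with 7 and Kcnj8 with 5, while Pdgfrb and Cspg4 had 1 each and Postn and Trpc6 had 0. The 21 peaks of Cox4i2 include 8 shared with Bcl2l1 and 17 shared with Id1.

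As a check of the tissue, 14 of 15 lung genes had a peak within 50 kb, against 68.0% of all protein-coding genes. Their median was 9, against 2. Sftpb, which encodes a surfactant protein, had 23, Hopx, of alveolar type I cells, 18 and Scgb1a1, of airway club cells, 16. Foxj1, which drives ciliated cells, had none. Of 12 genes of other organs 5 had a peak, with a median of 0, led by Vil1 with 8, Myh6 with 3 and Gad1 with 2.

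**Figure D4:**
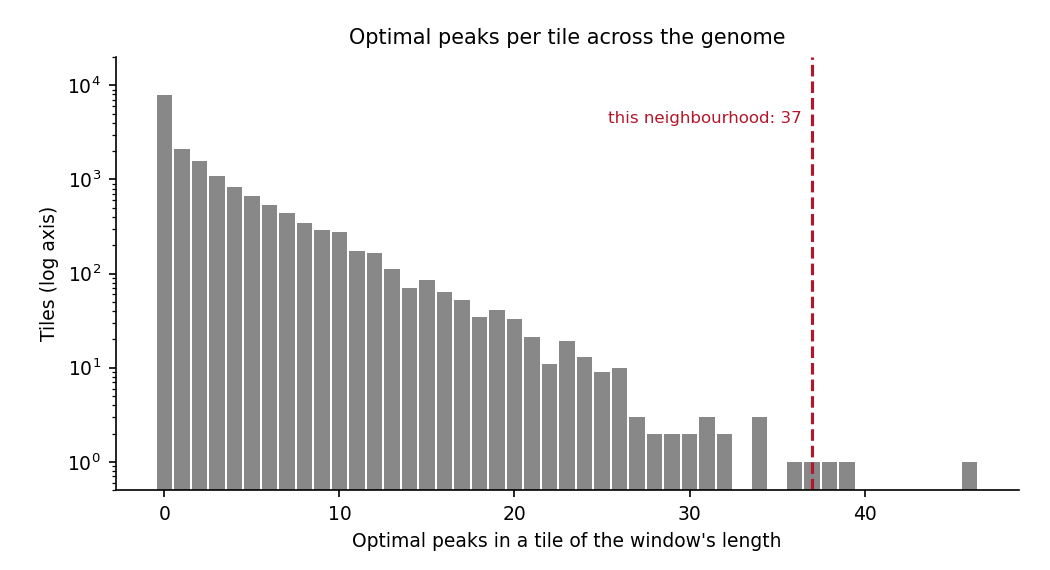
Number of genome tiles (log axis) by the count of optimal peaks in the tile, for tiles of the window's length laid from its edge. The window, at 37, lies beyond the 99th percentile of 19 peaks.

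Against the rest of the genome, the window was dense. Of 17058 tiles of 160 kb laid in phase with it, 7935 had no optimal peak, the median was 1 and the highest count was 46. At least 37 peaks occurred in 4 tiles (0.0234%), and the window was number 4 by count and number 2 by summed signal. Its median signal was 67.5 (quartiles 33.3 and 128), against 48.5 in the rest of the list (34.6 and 76.0). The window combined strong and weak peaks, with 14 over 100 but 15 of the 37 under the median of the list.

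The edges of the window did not cut a run of peaks. Its first summit lay 26.9 kb inside the H13 side and its last 29.3 kb inside the Tpx2 side. Just outside, the nearest optimal peaks were 3.04 kb from the H13 side, near Mcts2, with a signal of 76.9, and 200.5 kb from the Tpx2 side, near Ccm2l, with 68.1.

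The optimal list keeps peaks judged reproducible from these same libraries and carries their pooled signal. Matches of its peaks in both libraries are therefore partly built in, and they are given as a description. Within 100 bp of the optimal summit, replicate 1 had a summit at 32 of the 37 and replicate 2 at 34. Both had one at 30 (81.1%), against 85.9% of all optimal peaks. Peak 26 was matched in neither. Peaks 4, 6, 11 and 29 were not matched in replicate 1, and peaks 12 and 16 were not matched in replicate 2, whose summit near peak 16 lay 104 bp away.

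**Figure D5:**
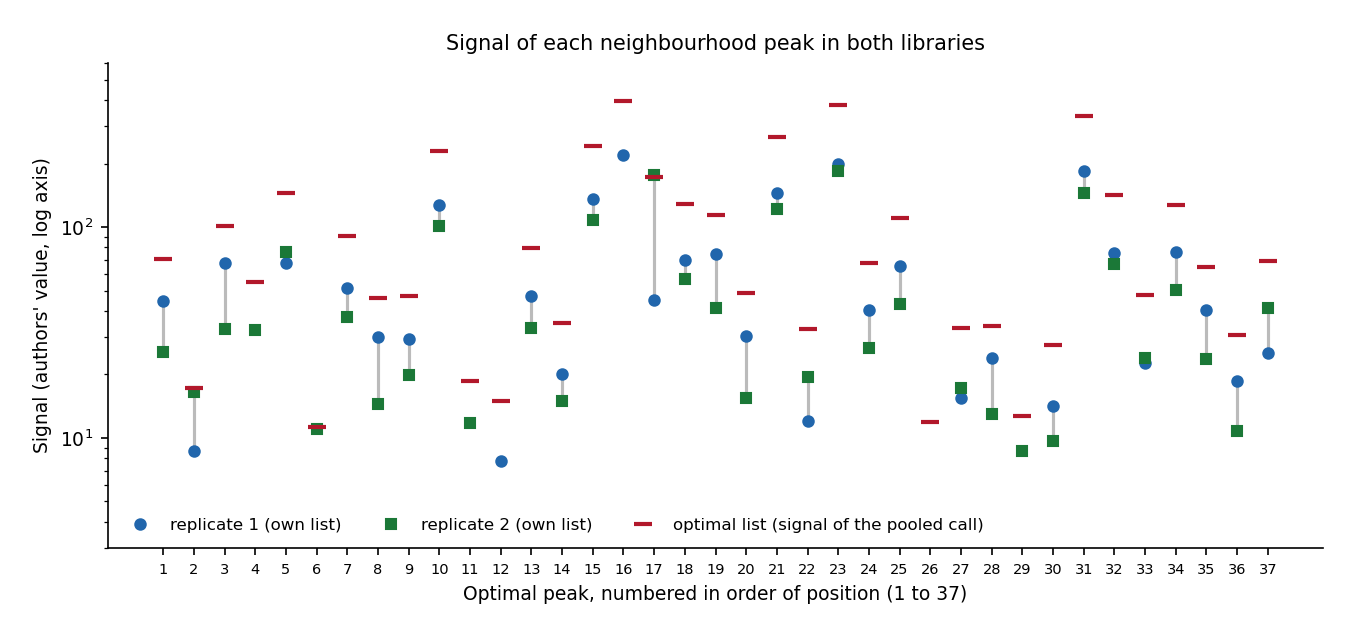
Signal (authors' value, log axis) of the 37 optimal peaks, numbered by position, in the own list of replicate 1 (circles) and of replicate 2 (squares), with the pooled signal as bars. Grey lines join the libraries at the 30 peaks matched in both, and the widest line is at peak 17.

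The 6 strongest regions of the window, those of peaks 10, 15, 16 and 17 together, 21, 23 and 31, were the same in both libraries. Peak 23 had 199 in replicate 1 and 185 in replicate 2, and peak 31 had 184 and 145. Peak 21 had 145 in replicate 1 and 121 in replicate 2, and peak 15 had 136 and 108. Replicate 1 gave the higher value at each of these 4, and it did so at the median peak too. The median log2 ratio of replicate 1 to replicate 2 was 0.44 over the 30 peaks, against 0.40 over all optimal peaks matched in both, for which the 5th and 95th percentiles were -0.62 and 1.43. Once the median was removed, 26 of the 30 stayed within 2-fold, and 89.3% of all matched optimal peaks did. The lowest ratio, -1.98, was that of peak 17. Across the 30 peaks the log2 signals of the libraries had a Pearson r of 0.85 and a Spearman rho of 0.86, as a description of peaks that share their libraries.

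Consensus sequences were counted in the central 100 bp, the central 200 bp and the whole of each of the 37 peaks. As 14 of the peaks overlap another, a match in shared sequence can count for both in the whole-peak counts. CACCC, bound by KLF and SP factors, was in 14 peaks at 100 bp (37.8%, against 22.9% of all optimal peaks), in 20 at 200 bp (54.1%, against 40.5%) and in 25 over whole peaks (67.6%, against 63.6%). CAGAC was in 11 at 100 bp (29.7%, against 21.1%) and in 25 over whole peaks (67.6%, against 64.5%). Both shares lay above that of the list at every width, by less in wider windows. The longer SMAD form, CAGACA, went the other way and lay below the list at every width. It was in 2 peaks at 100 bp (5.41%, against 9.02%), in 6 at 200 bp (16.2%, against 17.7%) and in 10 over whole peaks (27.0%, against 34.2%).

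For the TEAD, GATA, RUNX and AP-1 matches the side of the list on which the window fell changed with the width. TEAD was in 6 peaks at 100 bp (16.2%, against 11.7%), in 7 at 200 bp (18.9%, against 19.4%) and in 10 over whole peaks (27.0%, against 30.4%). GATA was in 4 at 100 bp (10.8%, against 9.53%) and in 7 over whole peaks (18.9%, against 26.6%), and RUNX in 4 (10.8%, against 6.998%) and in 8 (21.6%, against 26.6%). AP-1 turned the other way, with 2 at 100 bp (5.41%, against 5.94%) and 7 over whole peaks (18.9%, against 14.8%). No direction is given for these 4.

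The short ETS core, GGAA after A or C and before A or G, was in 11 peaks at 100 bp (29.7%, against 41.3%), but in 22 at 200 bp (59.5%, against 60.9%) and in 29 over whole peaks (78.4%, against 81.0%). RBPJ (TGGGAA) was in 5 at 100 bp (13.5%, against 11.9%), in 8 at 200 bp (21.6%, against 22.3%) and in 15 over whole peaks (40.5%, against 39.1%), so it changed sides too. FOX was in 1 at 100 bp (2.70%, against 7.94%) and in 5 over whole peaks (13.5%, against 19.2%). The median GC content of the central 100 bp was 53.0% in the window (range 37 to 70%), against 47.0% in the list, and its part in these shares was not tested.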

How the data were processed

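Per the submitters' notes, the authors aligned the reads (mm10 build), made peak lists from both libraries singly and pooled, and kept reproducible peaks by irreproducible discovery rate (IDR) as the optimal and conservative lists. The notes name 1 more input file behind every list and do not describe it. Aligner, caller and versions are not given in the sources used here, and a possible control experiment is not analysed here. The authors deposited a signal value per peak and state no scaling, and optimal peaks carry the pooled signal. No read counts were given, so depth is unknown. Summit position set membership. Libraries were matched by summits within 100 bp, and genes and starts were GENCODE vM21. Members, gene lists (6) and consensus sequences (32, both strands) were chosen with earlier results of these data known, and the looser glucocorticoid element after the sequences were seen. Named were all coding genes and peaks of the window and, per list, the 3 genes with most peaks. Added after their values were seen were Bcl2, Bcl2l2, Bcl2a1a, Bmf, Bbc3, Id2, Id3, Id4, Cox4i1, Pdgfrb, Cspg4, Postn, Trpc6 and Foxj1. All 94 list genes were matched. The sequence of 1 peak is not reported here. RefSeq promoters were given for 1 of the 3 members. No significance test was made. The code was tested on simulated data. Python 3.11.15, numpy 2.4.6, pandas 2.3.3, pysam 0.24.0 and matplotlib 3.10.9 were used.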

Additional observations from a re-analysis of the deposited data

How the results depend on the processing

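No paired analysis was possible because the series has 1 group and no result comes from a test. In the stronger 50% of the optimal list the window kept 22 peaks, in the conservative list 34 and after merging 30. The log2 ratio of the window's median signal to its list's median was 0.48 in the optimal list and 0.49 in the conservative list. With a library left out, using the 43988 strongest peaks of the other, it ranged from 0.58 to 0.59, and over the full lists it was 0.49 in replicate 1, 0.71 in replicate 2 and 0.50 in the pool. The share of peaks in the Bcl2l1 body was 64.9% in the optimal list, 61.8% in the conservative list and 59.4 to 61.8% with a library left out (34 and 32 peaks among the strongest). In the full lists it was 46.0% in replicate 1, 46.3% in replicate 2 and 43.8% in the pool. Promoter peaks of the members numbered 5 within 1 kb, 3 within 500 bp and 6 within 2 kb. Peaks found in both libraries numbered 30 at 100 bp, 25 at 50 bp and 37 where any overlap sufficed. With tiles shifted by 0.5 of their length 6 tiles had at least as many peaks as the window, against 4. Of these values only the log2 ratio has a direction, and it stayed positive under each setting. The counts and shares have none to reverse, and they changed by the amounts given. The window was selected on its signal and all lists come from the same 2 libraries, so the sign of the ratio is no independent check. Consensus shares set against the whole list depended on the width searched. Those of TEAD, GATA, RUNX, RBPJ and AP-1 changed sides, but they were not the only ones to do so. The share of HIF matches was 8.11% at 100 bp, against 12.8%, and 29.7% at 200 bp, against 24.2%. Several of the other consensus sequences searched, whose shares are not given here, also changed sides. The glucocorticoid element was in 0 peaks in its strict form and in 1 in its loose form, which was chosen after seeing the data. Depth was unknown, so a gene body without a peak shows only that none was called.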

Other observations

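The conservative list was not a subset of the optimal list in the window. Both lists shared 29 peaks there, 8 optimal peaks with signals of 11.3 to 33.0 were not conservative, and 5 conservative peaks were not optimal. The 5 were a summit in H13 with a signal of 44.4, another 203 bp from peak 4 with 46.4, a pair between Id1 and Cox4i2 with 42.7 and 33.5, and a summit in Bcl2l1, 209 bp from peak 35, with 33.5. Over the genome, 7235 conservative peaks (17.0%) were not optimal.

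The optimal list also held weak members. Signals under 20 belonged to 6 of its 37 peaks, while 54 of the 59 pooled peaks outside it had a signal above its weakest member (11.3). In each of the 7 overlapping pairs the summits lay 199 to 295 bp apart. The weaker of the pair had 11.3 against 145 at peaks 6 and 5, and 12.6 against 33.8 at peaks 29 and 28. Not every weaker member was low, with 173 against 394 at peaks 17 and 16 and 46.0 against 90.2 at peaks 8 and 7.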
